A study of Homo sapiens with 60 samples.

Results

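The coagulation and complement genes of liver are 44 protein-coding genes whose products the liver secretes into plasma, taken by symbol from the 60675 Ensembl genes of the count table. They comprise the fibrinogen chains and factor XIII B subunit, clotting factors, the contact system, anticoagulants, regulators of fibrinolysis, broad protease inhibitors, and complement components with their soluble regulators. Of the 44 genes, 42 had enough reads to be tested. F9, the factor IX gene, had 5 counts over the 60 libraries and C9, which encodes the last component of the membrane attack complex, had 1 count, so no change could be detected in either at this depth.

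The 60 libraries, in 25 groups, came from HepG2, a long-established cell line of a human liver tumour, treated for 24 h with an ethanol extract of plant material or with DMSO as vehicle. The plant extracts were Coptidis Rhizoma and Bupleuri Radix (each at 11.2, 56 and 280 µg/mL), and Zizyphi Fructus, Citri Unshius Pericarpium, Cimicifugae Rhizoma, Aconiti Lateralis Radix Preparata and the formulas Yijung-tang and Banhasasim-tang (each at 20, 100 and 500 µg/mL). There were 3 libraries per dose of Citri, Cimicifugae, Bupleuri and Aconiti, 2 per dose of Coptidis, Zizyphi and Yijung-tang, 1 per dose of Banhasasim-tang, and 3 of vehicle. A top dose below 500 µg/mL was the concentration that slowed growth by 20%, so 280 µg/mL of Coptidis and of Bupleuri was set by growth inhibition and the other top doses by the upper limit. The low, medium and high doses are called so below. HepG2 is 1 tumour-derived line, which limits it as a model of liver, and the labels do not say that libraries of a group came from separate cultures. P-values therefore measure the spread between libraries, which may be technical.

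Coagulation is a cascade of plasma serine proteases that ends when thrombin cuts fibrinogen into fibrin, and circulating inhibitors and the plasmin system hold it in check. Complement is a second protease cascade, started by the classical, lectin or alternative route, that cleaves C3 and can end in a membrane pore built from C5 to C9. Hepatocytes make most of these proteins, and many of the genes, fibrinogen among them, respond to inflammatory signals such as interleukin-6.

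Library totals ran from 18015555 to 29549531 counts. Hepatocyte markers were present in each of the 60 libraries, with ALB (albumin) at 7400 to 12000 CPM, the count scaled to library size, while KDR of endothelium, PTPRC of leukocytes, DCN of fibroblasts and PF4 and PPBP of platelets had no count in any of the 60. Other genes on these marker lists had counts in all 60, with LYZ and CD68 of leukocytes at 518 to 1660 and 20.2 to 80.4 CPM. PDGFRB of fibroblasts had 4.25 to 16.6 CPM, PECAM1 of endothelium 1.9 to 4.73 CPM and ITGA2B of platelets 0.0355 to 0.45 CPM. The vehicle libraries carried their own set code and the doses of an extract shared one, so the set and the treatment cannot be told apart against vehicle, whereas high against low dose stays within a set. Coptidis shared its set code with Zizyphi, Citri with Cimicifugae, Bupleuri with Aconiti and Yijung-tang with Banhasasim-tang. Extracts of the same set were not tested against each other here. The titles put all 60 libraries in batch D, but the descriptions put those of Coptidis and Zizyphi in batch C, so for these extracts it is not settled whether vehicle came from the same batch. Vehicle libraries also had lower counts for GC-rich relative to GC-poor genes (-0.27 to -0.22 log2 between quartiles of GC content, against -0.13 to 0.13 in most others). Replicate 3 of the Bupleuri low dose stood apart, with long transcripts low (-0.84 log2 between length quartiles), as did the Banhasasim-tang low-dose library (1.87 log2 between GC quartiles). Mitochondrial ribosomal RNA took 2.52% ± 0.0761 of counts in vehicle (SD, n = 3), and 11.7% ± 0.16, 10.9% ± 0.88 and 5.54% ± 0.187 at the Coptidis low, medium and high doses (n = 2 each). It took 0.485%, 8.01% and 11.8% in the Banhasasim-tang libraries from low to high dose. Its part in the results of both was not tested. The 10 hepatocyte markers summed to 28900 to 29700 CPM at the Coptidis high dose, against 45500 to 46100 in vehicle, with 8 of them called lower and 1 higher; SERPINA1 and FGB are among these markers and also among the 44 genes. The 4 biliary markers summed to 744 to 789 CPM there, against 489 to 504 in vehicle, and the 6 leukocyte markers, mostly LYZ, to 650 to 701 CPM, against 1390 to 1400 in vehicle. The part of these shifts in the Coptidis results was not tested either.

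In vehicle cells the genes spanned a wide range of levels when scaled per kilobase of exon. SERPINA1 (alpha-1-antitrypsin) was the highest at 1106 CPM per kb, followed by A2M (alpha-2-macroglobulin) at 541, FGG at 304, FGA at 255 and C3 at 210 CPM per kb. SERPINF2, the plasmin inhibitor, stood at 152 CPM per kb, FGB at 104, SERPINA5 (protein C inhibitor) at 97.8 and F2 (prothrombin) at 88.5 CPM per kb. The low end held C6 at 0.217, PLG (plasminogen) at 0.119 and KLKB1 (plasma prekallikrein) at 0.0806 CPM per kb. Together the 44 genes made up 1.61% ± 0.0305 of vehicle counts (n = 3). Their share was 0.993% ± 0.0192 at the Coptidis high dose (n = 2), 1.20% ± 0.018 at the Bupleuri high dose (n = 3) and 1.63% ± 0.0355 at the Zizyphi high dose (n = 2).

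At the high dose, the genes that changed were mostly lower than in vehicle in 6 of the 7 replicated extracts, and few changed with Zizyphi. Calls are from edgeR's quasi-likelihood test at a Benjamini-Hochberg adjusted p under 0.05 over 16675 genes. With Coptidis 30 of the 42 tested genes were lower and 3 higher, where 33.0% of all tested genes were called lower and 34.5% higher (67.5% in either direction). Bupleuri had 22 lower and 3 higher (19.1% and 19.9% of all genes, 38.9% in all), and Yijung-tang 21 and 3 (7.84% and 9.49%, 17.3% in all). Citri had 20 lower and 1 higher (6.51% and 7.73%, 14.2% in all), Cimicifugae 18 and 7 (10.0% and 12.1%, 22.2% in all), and Aconiti 16 and 1 (12.0% and 11.2%, 23.2% in all). With offsets for GC content and length, the Cimicifugae split became 25 lower and 4 higher, with 18.6% of all genes called. Zizyphi had 0 lower and 1 higher (1.57% and 2.07% of all genes, 3.63% in all), and 0 without any 1 of its or the vehicle libraries, 2 lower and 2 higher in a fit with vehicle alone. That fit called 12.2% of all its genes. At an unadjusted p under 0.05, Zizyphi had 2 higher and 4 lower, and DESeq2 called 1 higher and 1 lower (8.06% of the genes it gave an adjusted p).

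The median log2 change of the 42 genes at the high dose against vehicle was -0.71 with Coptidis, -0.36 with Bupleuri, -0.29 with Yijung-tang, -0.21 with Citri, -0.14 with Cimicifugae, -0.13 with Aconiti and 0.00 with Zizyphi. The median over all tested genes lay between -0.01 and 0.02 in these 7 comparisons. Coptidis took 16 genes to a fold change of at least 2 downward, Bupleuri 4, Yijung-tang 2, and the other 4 extracts none. Those 16, 4 and 2 are 38.1%, 9.52% and 4.76% of the 42 genes, where 12.7%, 1.48% and 0.546% of all tested genes were called lower by at least that fold. In bulk RNA, fewer cells expressing a gene and less RNA per cell cannot be told apart.

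**Figure D1:**
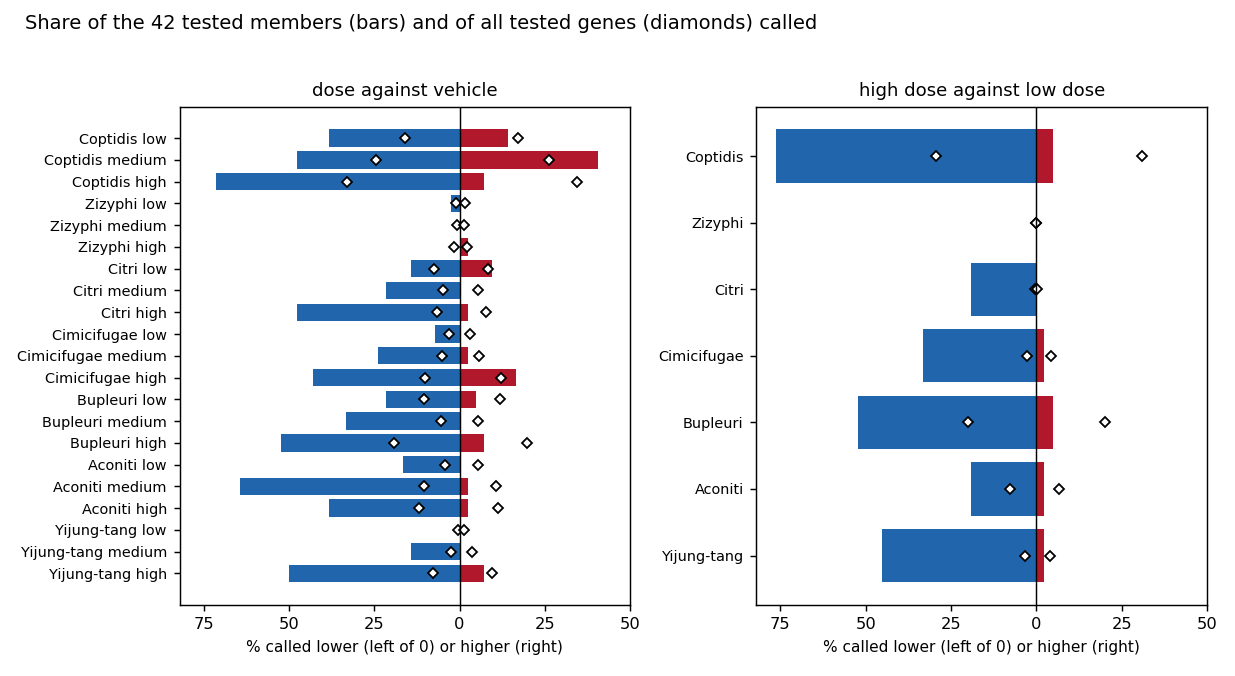
Bars give the percentage of the 42 tested genes called lower (left of 0) or higher (right) by edgeR, for each dose against vehicle (left panel) and high against low dose (right panel), with diamonds for the same percentages over all 16675 tested genes. The bars run past the diamonds on the left for each of the high doses except Zizyphi, reaching 71.4% against 33.0% of all genes with Coptidis and 47.6% against 6.51% with Citri.

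Within a set, most calls of high against low dose were also lower. Coptidis had 32 lower and 2 higher at the high dose (29.3% and 30.9% of all genes, 60.2% in all), Bupleuri 22 and 2 (20.0% and 20.2%, 40.2% in all), Yijung-tang 19 and 1 (3.31% and 3.98%, 7.29% in all) and Cimicifugae 14 and 1 (2.73% and 4.41%, 7.14% in all). Citri had 8 lower and 0 higher (0.528% and 0.252% of all genes, 0.780% in all), with 26 lower and 1 higher at an unadjusted p under 0.05 and 12 lower in DESeq2. Aconiti had 8 lower and 1 higher (7.83% and 6.77%), with 14.6% of all genes in either direction. Zizyphi had 0 of 42 called, with 0.00600% of all genes called in either direction, 1 of the 42 at an unadjusted p under 0.05 and 0 in DESeq2. Without replicate 3 of the Bupleuri low dose in the fit, the counts were 16 for Citri, 24 for Cimicifugae and 16 for Aconiti, and in a fit of the extract with vehicle alone 18, 27 and 18. The shares of all genes called were 2.14%, 12.7% and 22.2% in the first case and 2.81%, 17.4% and 26.8% in the second. The Citri count was 3 without its high-dose replicate 1, and 4 without its high-dose replicate 2, low-dose replicate 1 or low-dose replicate 3. Offsets for GC content and length gave 17 for Citri and 24 for Cimicifugae, with 1.72% and 10.9% of all genes called.

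There were 14 genes called lower than vehicle at the high dose in each of the 6 extracts other than Zizyphi. They were FGA, FGB, FGG, KNG1, SERPINA5, PROS1, CPB2, SERPINA1, A2M, CFB, CFI, C4BPA, C8A and C8B. The 14 are 33.3% of the 42 genes, where 1.21% of all tested genes were called lower in those 6 extracts. The 6 comparisons share the vehicle libraries. For 7 of the 14 (FGA, FGB, FGG, SERPINA5, PROS1, CFI and C8A) each of these calls held under each alternative and each left-out library. At least 1 call was lost for KNG1 (Citri), CPB2 (Aconiti), SERPINA1 (Citri and Cimicifugae), A2M (Aconiti), CFB (Cimicifugae), C4BPA (Aconiti) and C8B (Citri, Aconiti and Yijung-tang). Against the low dose of the same extract, FGA and FGB were lower in 6 extracts (the FGA call in Citri was lost without any 1 library but low-dose replicate 2, and the FGB call in Aconiti without the filter or without 1 of 4 of the 6 libraries), and FGG, KNG1, SERPINA5, CFB, CFI, C4BPA and C8A in 5. Another 6 genes, F2, F5, KLKB1, PROZ, PLG and C3, were not called in any extract at the high dose against vehicle in the fit of all 57 libraries. Alternatives added calls for 4 of them, and leaving out 1 library for PLG. F5 was called lower in 5 extracts without Bupleuri low-dose replicate 3, in 4 with offsets, in 4 without the filter and in 1 with DESeq2; fits with vehicle alone called it in 5, lower in 4 and higher in Aconiti. C3 was called lower in 4 extracts with offsets, and in Aconiti and Bupleuri (lower) and Zizyphi (higher) without that library. Fits with vehicle alone also called C3 in Aconiti and Zizyphi, and the fit without the filter in Aconiti. F2 was called lower in 4 with offsets and in Yijung-tang in the fit with vehicle alone, and PROZ in Yijung-tang with offsets or without that library. PLG was called lower in Coptidis without vehicle replicate 3, and in Bupleuri without vehicle replicate 3 or its own high-dose replicate 3.

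**Figure D2:**
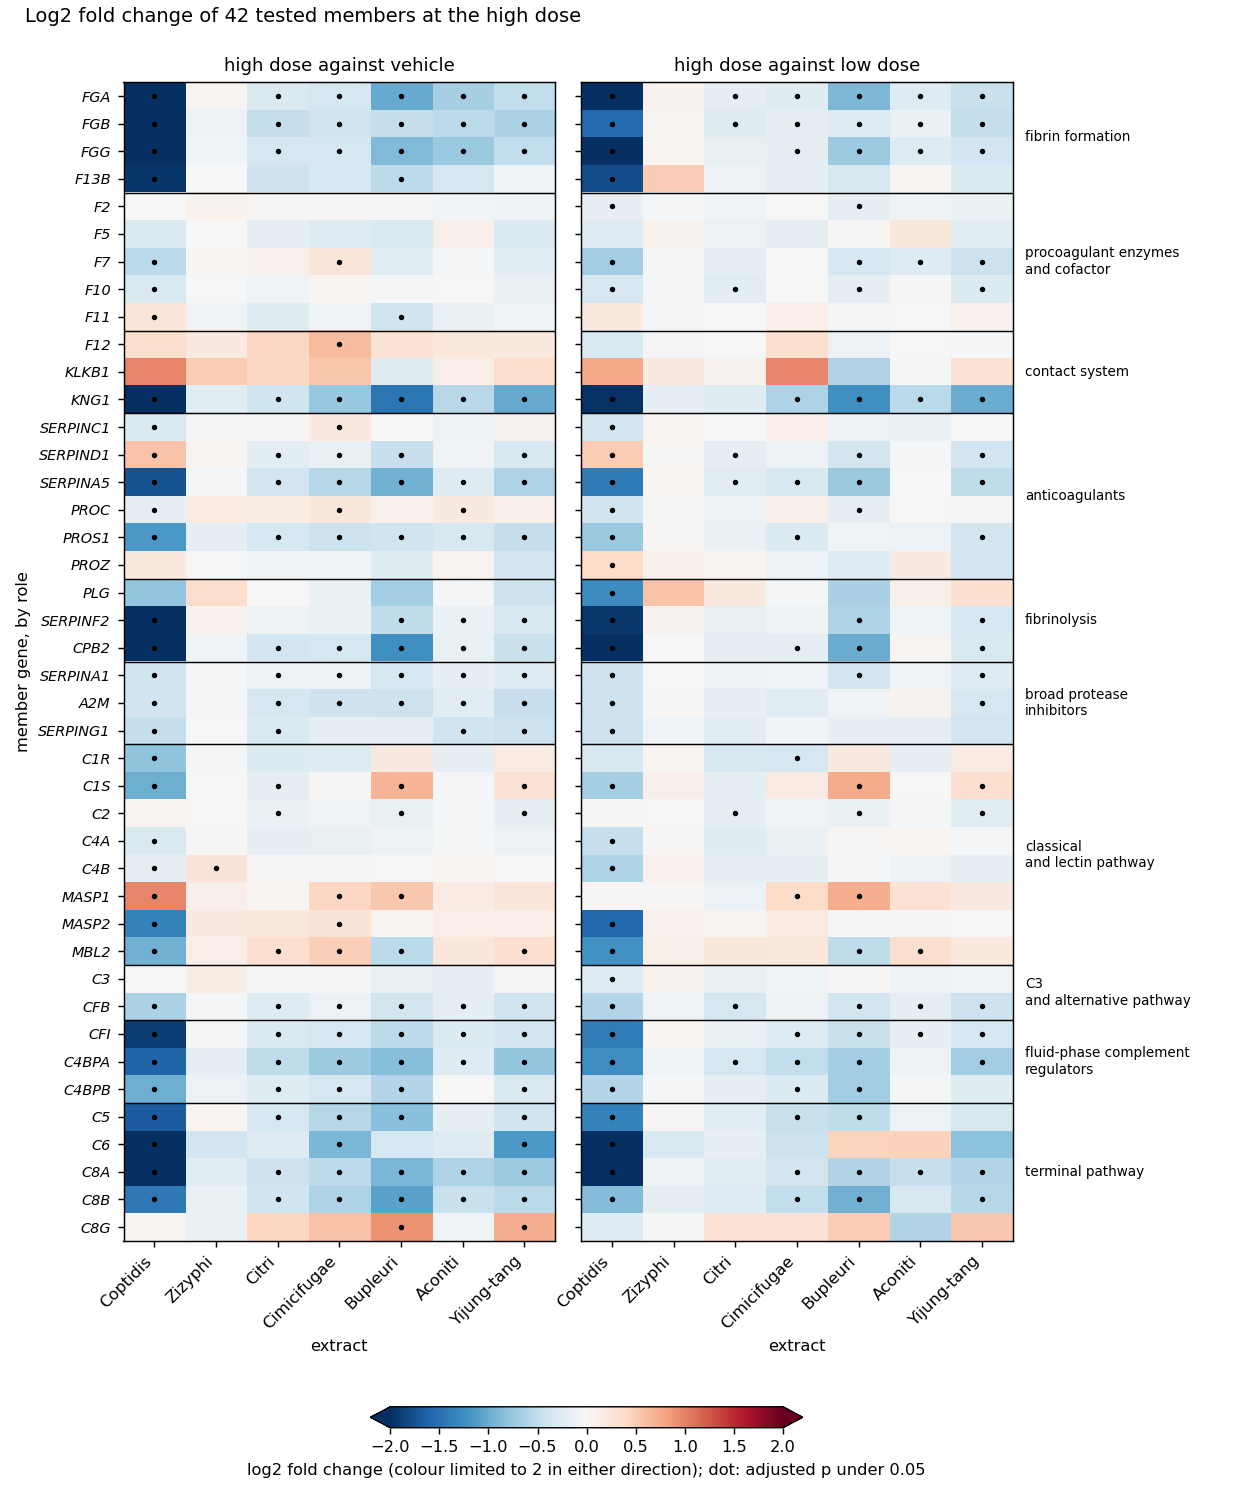
Colour gives the log2 fold change of each of the 42 tested genes (rows, by role) at the high dose of 7 extracts (columns) against vehicle (left) and against the low dose of the same extract (right), limited to 2 in either direction, with a dot where the adjusted p was under 0.05. The fibrinogen genes, KNG1, CFI, C4BPA and C8A carry dots in 6 columns of the left panel, and F2 and C3 carry none there.

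FGA, FGB and FGG encode the 3 chains of fibrinogen and lie side by side on chromosome 4 of GRCh38, with FGB ending 12.04 kb before FGA and FGA ending 13.368 kb before FGG. The 250 bases before each start site (RefSeq, GRCh38.p14) are shown because the 3 chains were lower together in 6 extracts. The FGA stretch is chr4:154590743-154590992 on the minus strand, FGB chr4:154562730-154562979 on the plus strand and FGG chr4:154612657-154612906 on the minus strand. Capitals mark matches on either strand to the HNF1 letters GTTAAT, the C/EBP letters TTGCNNAA and the interleukin-6 response element core CTGGGAA.
FGA: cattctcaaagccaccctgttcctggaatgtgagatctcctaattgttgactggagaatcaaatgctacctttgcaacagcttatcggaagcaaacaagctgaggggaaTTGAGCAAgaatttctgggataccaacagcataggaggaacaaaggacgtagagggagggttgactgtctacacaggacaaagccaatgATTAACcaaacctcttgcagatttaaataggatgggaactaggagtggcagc
FGB: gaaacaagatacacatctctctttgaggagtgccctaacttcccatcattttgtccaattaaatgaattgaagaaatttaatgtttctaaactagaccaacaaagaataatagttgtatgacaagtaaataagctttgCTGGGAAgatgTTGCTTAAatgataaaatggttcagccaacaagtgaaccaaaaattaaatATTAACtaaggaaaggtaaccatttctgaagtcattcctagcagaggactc
FGG: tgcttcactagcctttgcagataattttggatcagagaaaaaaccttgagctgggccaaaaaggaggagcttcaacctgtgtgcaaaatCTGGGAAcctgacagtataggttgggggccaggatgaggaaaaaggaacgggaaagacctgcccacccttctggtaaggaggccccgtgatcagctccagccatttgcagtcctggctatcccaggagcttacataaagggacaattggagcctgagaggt
The matches began 141 (C/EBP) and 52 (HNF1) bases before the FGA start, 112 (interleukin-6 core), 101 (C/EBP) and 51 (HNF1) bases before FGB, and 161 bases (interleukin-6 core) before FGG. None of these matches overlapped another. Of 35116 promoter windows of this length, 6.23% held the HNF1 letters, 9.05% the C/EBP letters and 9.15% the interleukin-6 core, and among the 35 of the 44 genes with a window the counts were 12, 9 and 7. The 12 with the HNF1 letters include genes lower in 6 extracts (FGA, FGB, CFI, C4BPA, SERPINA1) and genes called in no extract at the high dose against vehicle in the fit of all 57 libraries (F2, KLKB1, PLG). A match is a description of letters and not evidence of binding.

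Coptidis lowered the fibrinogen chains most, stepwise with dose. FGA had 1027, 990 and 1007 CPM in vehicle, 588 and 602 at the low dose, 313 and 350 at the medium dose, and 69.0 and 74.2 at the high dose. Each dose step was below the one before with no overlap between libraries. The high dose was 14.1-fold lower than vehicle (log2 change -3.81 ± 0.06 SE, edgeR adjusted p = 6.85e-40) and 8.30-fold lower than the low dose (-3.05 ± 0.06, edgeR adjusted p = 7.48e-36). FGG had 89.7 and 96.8 CPM at the high dose, against 1135, 1025 and 1121 in vehicle, an 11.7-fold difference (-3.55 ± 0.07, edgeR adjusted p = 2.21e-36). FGB had 56.4 and 52.7 CPM at the high dose, against 288, 277 and 281 in vehicle (-2.37 ± 0.06, edgeR adjusted p = 2.33e-34).

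The chains did not fall in equal measure. FGB made up 24.9% ± 1.88 of the summed CPM of the 3 chains at the Coptidis high dose (n = 2) and 15.5% ± 0.398 at the Bupleuri high dose (n = 3), against 11.8% ± 0.224 in vehicle (n = 3). The sum itself was 219 ± 6.17 CPM at the Coptidis high dose and 2384 ± 81.2 CPM in vehicle. Across the other replicated groups the FGB share ran from 10.7% to 13.7%.

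Bupleuri lowered FGA to 541, 458 and 504 CPM at the high dose, against 1027, 990 and 1007 in vehicle (-1.01 ± 0.05, edgeR adjusted p = 5.77e-22) and 938, 930 and 939 at its own low dose (-0.90 ± 0.05, edgeR adjusted p = 3.06e-20). Its FGG fell to 634, 556 and 598 CPM (-0.88 ± 0.06 against vehicle, edgeR adjusted p = 3e-17) and its FGB to 214, 193 and 198 CPM (-0.48 ± 0.04, edgeR adjusted p = 2.59e-12). No high-dose library overlapped vehicle for any of the chains.

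Smaller falls of the chains were measured in 4 more extracts. Aconiti had FGA at 582, 678 and 643 CPM and FGG at 617, 683 and 658 CPM at the high dose, with log2 changes of -0.67 ± 0.05 and -0.74 ± 0.06 against vehicle (edgeR adjusted p = 4.2e-15 and 4.54e-14). Its low dose was already low, with FGA at 735, 783 and 762 CPM. Yijung-tang had FGB at 183 and 181 CPM at the high dose, against 254 and 255 at its low dose (-0.48 ± 0.05, edgeR adjusted p = 8.23e-09). Citri had FGB at 197, 203 and 206 CPM at the high dose (-0.48 ± 0.04 against vehicle, edgeR adjusted p = 3.42e-10) and Cimicifugae at 212, 207 and 224 CPM (-0.39 ± 0.04, edgeR adjusted p = 3.71e-09). Zizyphi left FGA at 1032 and 1064 CPM at the high dose, a log2 change of 0.06 that was not called. F13B, the carrier subunit of the fibrin cross-linking enzyme, was at 1.61 CPM in vehicle and was called lower with Coptidis (-1.95 ± 0.29, edgeR adjusted p = 8.26e-08) and Bupleuri (-0.53 ± 0.20, edgeR adjusted p = 0.0288); the Bupleuri call was lost under offsets, without the filter, in DESeq2 and in a separate fit.

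**Figure D3:**
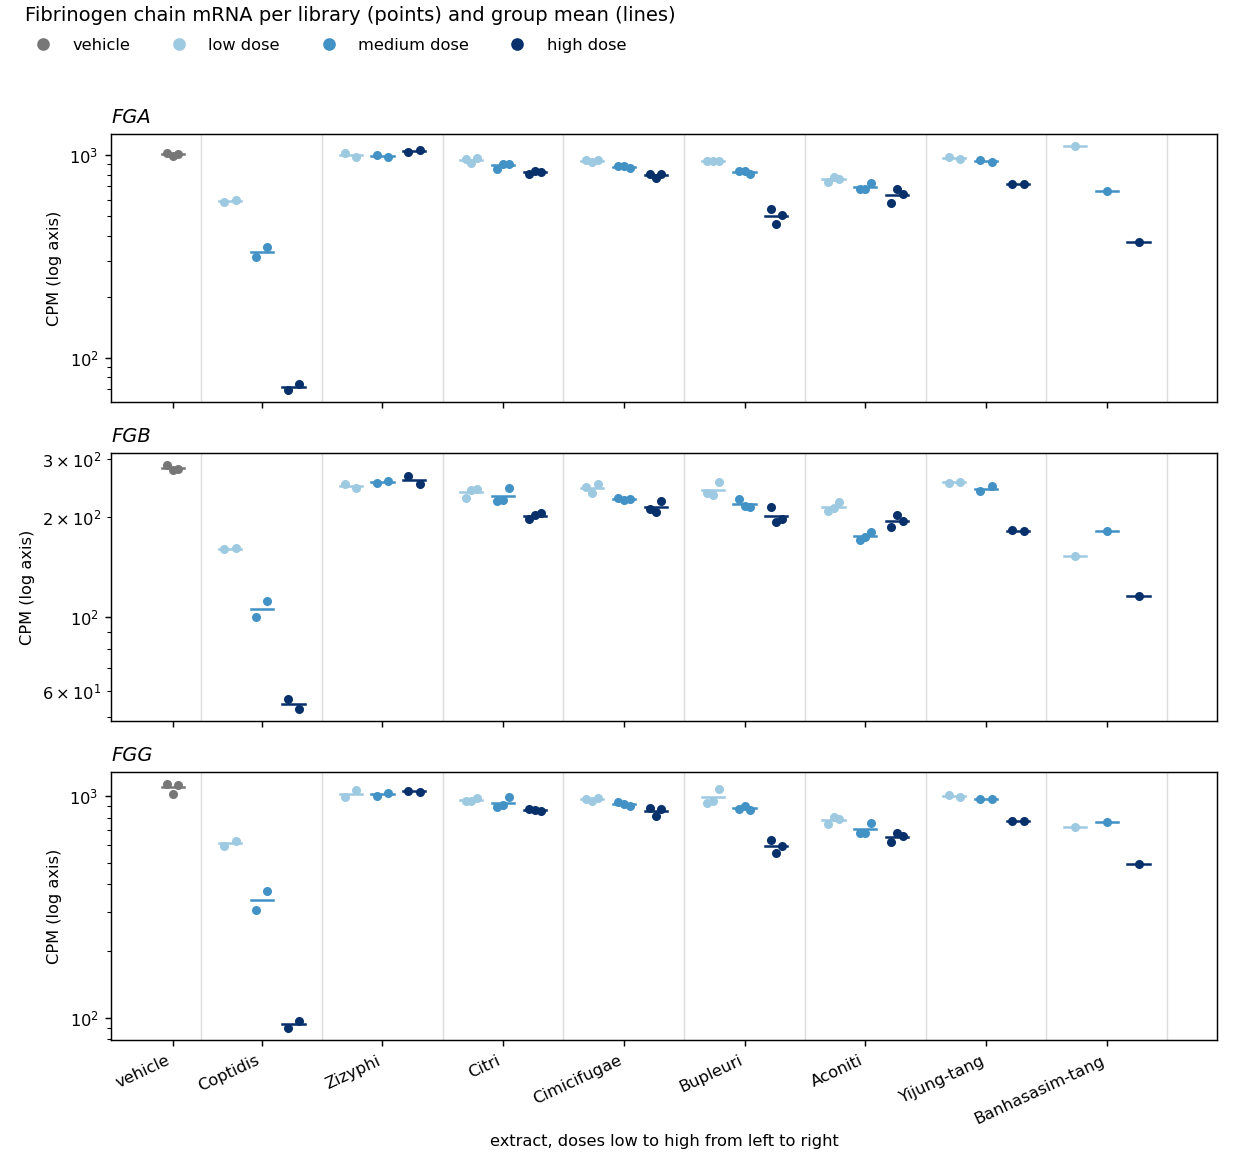
Points are libraries and short lines group means of FGA, FGB and FGG in CPM on a log axis, for vehicle and for the low, medium and high dose of 8 extracts. FGA at the Coptidis high dose lies at 69.0 and 74.2 CPM, below each of the other libraries, and the Zizyphi high dose at 1032 and 1064 CPM lies above the vehicle libraries.

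Among the 5 tested procoagulant enzymes and their cofactor, Coptidis at the high dose had 2 lower and 1 higher than vehicle, Cimicifugae 1 higher and Bupleuri 1 lower. Of all genes, 67.5%, 22.2% and 38.9% were called in either direction in these comparisons. F2, which encodes prothrombin, had 216 and 240 CPM at the Coptidis high dose, against 226, 226 and 225 in vehicle, and was not called against vehicle at the high dose of any extract (with offsets, it was called lower with Cimicifugae, Bupleuri, Aconiti and Yijung-tang, between -0.093 and -0.17). Against the low dose it was called lower with Coptidis (-0.17 ± 0.05, edgeR adjusted p = 0.00425; lost with offsets and without Coptidis high replicate 2 or low replicate 3) and Bupleuri (-0.20 ± 0.04, edgeR adjusted p = 0.000197). F7, the factor VII gene that starts clotting with tissue factor, was lower with Coptidis (7.91 and 6.82 CPM, against 10.7, 11.4 and 10.1 in vehicle, -0.55 ± 0.11, edgeR adjusted p = 3.82e-05). In Cimicifugae, F7 had 12.5, 12.5 and 13.2 CPM at the high dose (0.25 ± 0.09 against vehicle, edgeR adjusted p = 0.0373), a call lost with offsets, without the filter and without any 1 of 5 of the 6 libraries. F11, the factor XI gene, was higher with Coptidis (37.7 and 35.8 CPM, against 31.6, 30.6 and 30.8 in vehicle, 0.24 ± 0.10, edgeR adjusted p = 0.0314; lost without vehicle replicate 2 or 3 or either Coptidis library) and lower with Bupleuri (-0.40; lost in a fit with vehicle alone). F10, the factor X gene, was lower than vehicle at the Coptidis high dose (-0.30 ± 0.07, edgeR adjusted p = 0.000103). Against the low dose, F10 was called lower with Coptidis (-0.34), Yijung-tang (-0.28), Citri (-0.23) and Bupleuri (-0.19), the last 3 lost without at least 1 library. F7 was called lower against the low dose with Coptidis (-0.69), Yijung-tang (-0.43), Bupleuri (-0.34) and Aconiti (-0.26), the Yijung-tang and Aconiti calls being lost without at least 1 library. F5, the factor V gene, changed by -0.31 with Bupleuri, -0.29 with Yijung-tang and -0.28 with Coptidis against vehicle, which were not called in the fit of all 57 libraries.

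In the contact system, which links factor XII activation to bradykinin release, KNG1 moved apart from the other genes. KNG1 encodes kininogen, the source of bradykinin. It had 1.05 and 0.564 CPM at the Coptidis high dose, against 7.82, 7.51 and 6.80 in vehicle, a 9.15-fold difference (-3.19 ± 0.20, edgeR adjusted p = 1.3e-18). KNG1 had 2.55, 2.81 and 2.67 CPM at the Bupleuri high dose, against 6.19, 6.75 and 5.91 at the low dose (-1.23 ± 0.13, edgeR adjusted p = 1.13e-10). Yijung-tang had 3.17 and 4.14 CPM at the high dose, against 7.37 and 7.27 at the low dose (-0.999 ± 0.15, edgeR adjusted p = 4.66e-06). In these comparisons no library of one group overlapped the other. KNG1 also fell with Cimicifugae to 4.19, 4.31 and 4.56 CPM (-0.76 ± 0.12 against vehicle, edgeR adjusted p = 3.14e-06) and with Aconiti to 4.97, 4.62 and 5.54 CPM at the high dose, against 7.25, 6.93 and 7.88 at the low dose (-0.54 ± 0.12, edgeR adjusted p = 0.000579). Against its low dose (7.12, 6.52 and 6.33 CPM) the Cimicifugae change was -0.61 ± 0.12, edgeR adjusted p = 0.000234. Against vehicle, KNG1 changed by -1.46 ± 0.13 with Bupleuri (edgeR adjusted p = 6.97e-13) and -1.01 ± 0.14 with Yijung-tang (edgeR adjusted p = 4.42e-07). With Citri the call (-0.39 ± 0.12, edgeR adjusted p = 0.0181) was lost with offsets and without vehicle replicate 1 or 2 or Citri replicate 1. F12, the factor XII gene, was called higher with Cimicifugae (0.63 ± 0.15, edgeR adjusted p = 0.00202), a call lost with offsets. KLKB1 was not called at the high dose, though at the Coptidis medium dose it was called higher than vehicle (1.24, edgeR adjusted p = 0.0379). KLKB1 was near the floor, at 0.238 CPM in vehicle and 2 to 16.1 counts per library over the 60.

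The anticoagulants split. SERPINA5 fell in 6 extracts, from -1.74 ± 0.05 with Coptidis and -0.96 ± 0.04 with Bupleuri to -0.26 ± 0.04 with Aconiti against vehicle. PROS1, which encodes protein S, the cofactor of activated protein C, fell by 1.14 on the log2 scale with Coptidis and between -0.32 and -0.47 in the other 5 extracts. SERPIND1 encodes heparin cofactor II, a thrombin inhibitor. It rose with Coptidis to 293 and 295 CPM at the high dose, against 202, 191 and 202 in vehicle (0.57 ± 0.05, edgeR adjusted p = 2.76e-13) and 200 and 214 at the low dose. SERPIND1 fell with Bupleuri to 150, 142 and 138 CPM (-0.47 ± 0.05 against vehicle, edgeR adjusted p = 3.2e-11) and with Yijung-tang to 157 and 159 CPM (-0.33 ± 0.05, edgeR adjusted p = 1.03e-05). It was called lower with Citri (-0.21) and Cimicifugae (-0.15; lost with offsets, without the filter and without vehicle replicate 1 or 3) too. The Coptidis libraries were above and the Bupleuri and Yijung-tang libraries below all 3 vehicle libraries. SERPINC1 (antithrombin) changed by -0.30 with Coptidis and 0.18 with Cimicifugae, the second lost without vehicle replicate 1 or 2 or Cimicifugae replicate 1 or 3. PROC, the protein C gene, was called lower with Coptidis (-0.19) and higher with Cimicifugae (0.23) and Aconiti. In Aconiti PROC had 67.0, 74.7 and 69.2 CPM at the high dose, against 59.96, 62.7 and 64.0 in vehicle (0.18 ± 0.07, edgeR adjusted p = 0.044), and both rises were lost with offsets; the Cimicifugae call also without vehicle replicate 1, the Aconiti call without any library but its replicate 1, and the Coptidis call without vehicle replicate 3 or Coptidis replicate 2. PROZ, the protein Z gene, was called higher with Coptidis against its low dose (0.37), a call lost in DESeq2 and without any 1 of the 4 Coptidis libraries. Its Coptidis medium dose was called higher than vehicle (0.45, edgeR adjusted p = 0.00394).

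In fibrinolysis, CPB2 and SERPINF2 fell, and PLG stayed below 1 CPM in vehicle. CPB2 encodes the carboxypeptidase TAFI, which slows clot breakdown. It had 10.2 and 9.27 CPM at the Coptidis high dose, against 50.2 and 51.9 at the low dose (-2.39 ± 0.07, edgeR adjusted p = 5.5e-30). CPB2 had 31.7, 29.8 and 31.2 CPM at the Bupleuri high dose, against 72.6, 70.4 and 73.7 in vehicle (-1.23 ± 0.05, edgeR adjusted p = 4.27e-24). Against the Bupleuri low dose, at 61.1, 59.2 and 65.1 CPM, its change was -0.9996 ± 0.05, edgeR adjusted p = 5.42e-21. Both high doses lay wholly below their comparison libraries. SERPINF2 fell by 2.12 on the log2 scale with Coptidis, 0.51 with Bupleuri, 0.32 with Yijung-tang and 0.14 with Aconiti against vehicle. The last call was lost without the filter and without vehicle or Aconiti replicate 1 or 3, and that of CPB2 with Aconiti (-0.15) without the filter, with offsets and without vehicle replicate 3. PLG was called lower at the Coptidis high dose against its low dose (-1.26), a call lost without high-dose replicate 3.

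The broad protease inhibitors changed little in size but in several extracts. SERPINA1, which inhibits neutrophil elastase, fell between -0.12 and -0.40 in 6 extracts, and A2M between -0.21 and -0.46. SERPING1, the C1 inhibitor gene that restrains both C1 and the contact system, was called lower in 4 extracts, with log2 changes between -0.31 and -0.48. The A2M call with Aconiti was lost without any 1 of the 6 libraries. The SERPINA1 calls with Citri and Cimicifugae and the SERPING1 call with Citri were lost without the filter and without vehicle replicate 1 or 3, the SERPINA1 calls also without Citri replicate 1 or 3 or Cimicifugae replicate 2 or 3, and the SERPING1 call without Citri replicate 1 or 2. SERPING1 was also lost in Aconiti without replicate 1 and in Yijung-tang without vehicle replicate 3 or its own replicate 1.

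The classical and lectin pathway held most of the rises, and falls as well. With Coptidis 6 of its 8 genes were called lower and 1 higher at the high dose against vehicle (33.0% and 34.5% of all genes). C1S encodes the protease of the C1 complex that cleaves C4 and C2. It rose with Bupleuri to 33.0, 31.7 and 34.8 CPM at the high dose, against 21.6, 20.5 and 19.8 in vehicle (0.68 ± 0.05, edgeR adjusted p = 2.98e-14). With Yijung-tang C1S had 24.4 and 26.3 CPM (0.30 ± 0.06, edgeR adjusted p = 0.000402). With Coptidis C1S fell to 10.3 and 10.6 CPM (-0.98 ± 0.07, edgeR adjusted p = 2.02e-16), so its libraries lay below vehicle while those of Bupleuri and Yijung-tang lay above. With Citri C1S was also lower (-0.20 ± 0.06, edgeR adjusted p = 0.0152; lost without the filter and without replicate 1 of vehicle or of Citri). C1R, which encodes the protease that activates C1s and ends 9.167 kb from C1S on chromosome 12, was called at the high dose against vehicle with Coptidis (-0.81 ± 0.12, edgeR adjusted p = 3.67e-07). With offsets C1R was also called lower with Citri (-0.32) and Cimicifugae (-0.32).

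MASP1, a gene for a lectin pathway protease, had 12.1 and 13.0 CPM at the Coptidis high dose, against 6.36, 5.43 and 7.37 in vehicle (0.98 ± 0.13, edgeR adjusted p = 9.1e-09). Its Coptidis level was 12.2 and 12.5 CPM at the low dose and 21.1 and 19.5 CPM at the medium dose, so the high dose did not differ from the low dose. MASP1 was also higher with Bupleuri (9.99, 9.08 and 8.82 CPM, 0.55 ± 0.12 against vehicle, edgeR adjusted p = 0.000209) and Cimicifugae (8.42, 7.67 and 9.35 CPM, 0.41 ± 0.12, edgeR adjusted p = 0.00905; lost without vehicle replicate 2 or Cimicifugae replicate 3). KNG1 lies 472.875 kb from MASP1 on chromosome 3 and fell in those 3 extracts.

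MBL2 encodes mannose-binding lectin, the sensor of the lectin pathway. It was higher with Cimicifugae (17.3, 19.4 and 17.7 CPM, 0.48 ± 0.09, edgeR adjusted p = 6.86e-05), Citri (16.8, 16.2 and 16.5 CPM, 0.34 ± 0.09, edgeR adjusted p = 0.00792) and Yijung-tang (16.5 and 16.3 CPM, 0.33 ± 0.10, edgeR adjusted p = 0.0166), against 13.7, 12.1 and 13.3 CPM in vehicle. The Citri and Yijung-tang calls were lost without vehicle replicate 2, and the Yijung-tang call without either of its libraries. With Aconiti it had 15.8, 15.2 and 14.6 CPM at the high dose, against 11.9, 12.0 and 12.2 at the low dose (0.34 ± 0.09, edgeR adjusted p = 0.00684). MBL2 was lower with Coptidis (7.44 and 5.89 CPM, -0.97 ± 0.12, edgeR adjusted p = 1.63e-09) and Bupleuri (9.95, 8.49 and 8.51 CPM, -0.53 ± 0.10, edgeR adjusted p = 1.48e-05). MASP2, which encodes the main C4-cleaving protease of the lectin pathway, fell with Coptidis to 6.75 and 5.23 CPM, against 16.1, 14.9 and 15.1 in vehicle (-1.36 ± 0.11, edgeR adjusted p = 2.13e-14), and was called higher with Cimicifugae (0.25; lost without vehicle replicate 2 or 3 or Cimicifugae replicate 1).

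**Figure D4:**
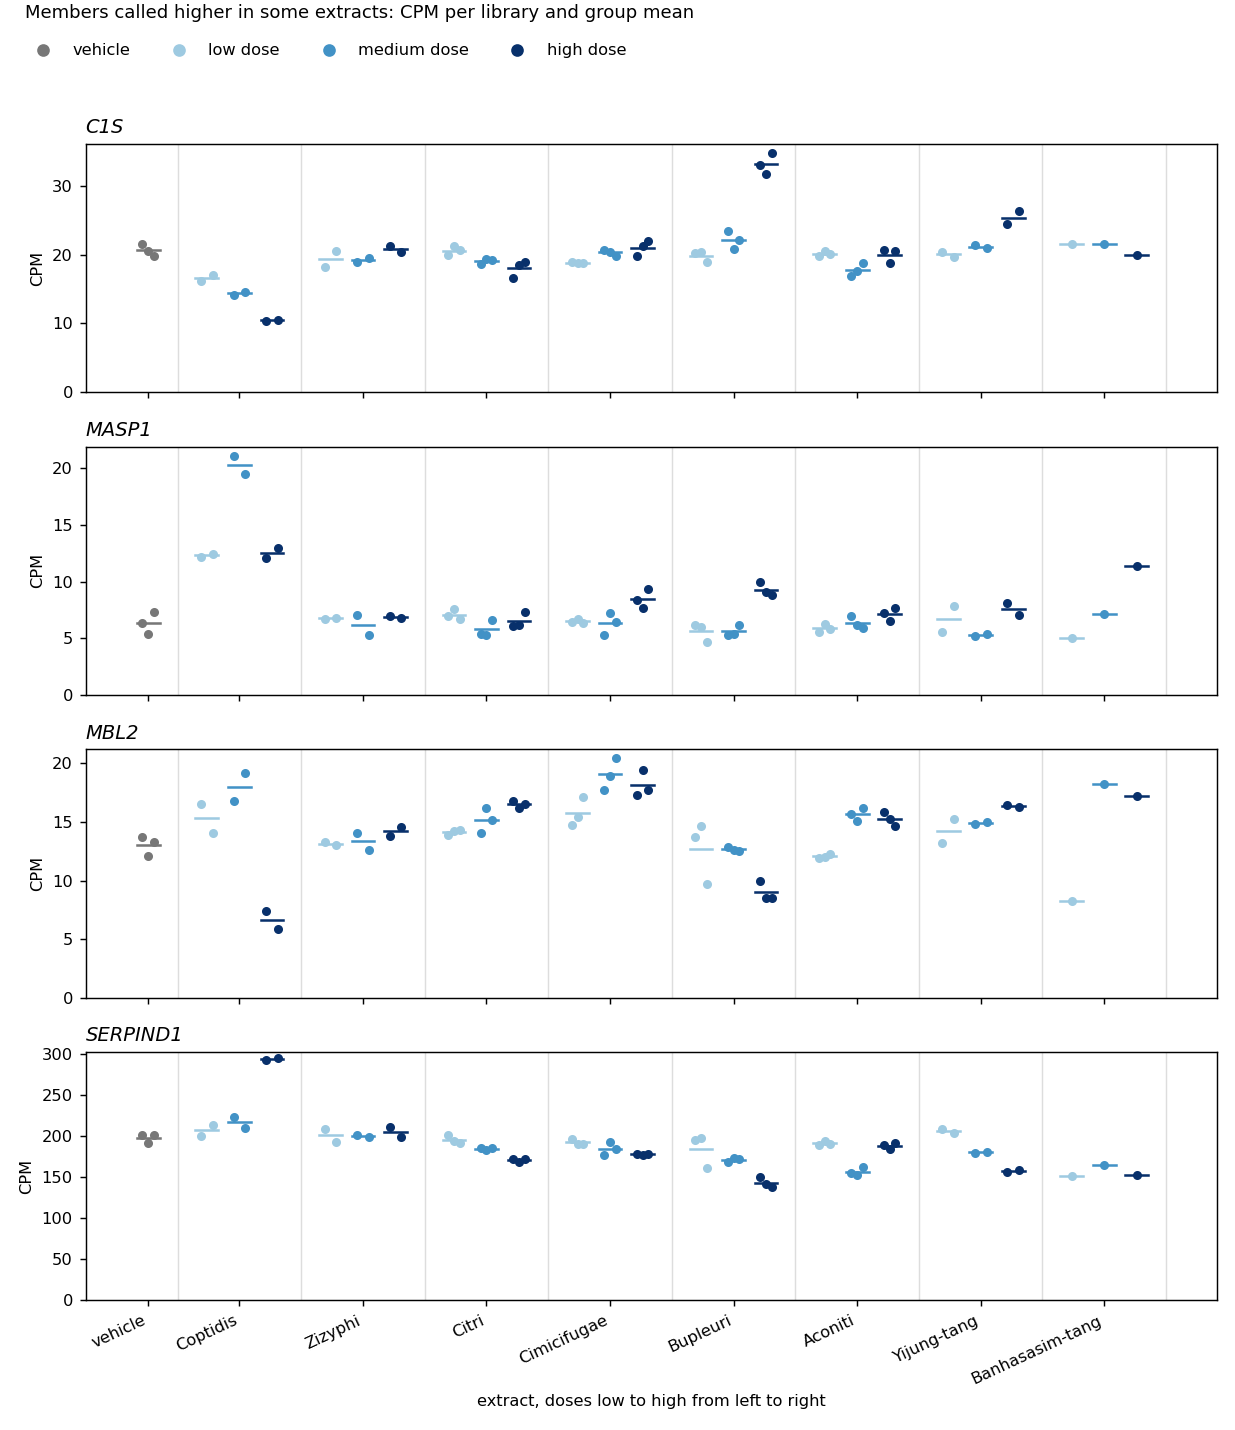
Points are libraries and short lines group means of C1S, MASP1, MBL2 and SERPIND1 in CPM, for vehicle and for the low, medium and high dose of 8 extracts. C1S is highest at the Bupleuri high dose (31.7 to 34.8 CPM) and lowest at the Coptidis high dose (10.3 and 10.6 CPM), and SERPIND1 is highest at the Coptidis high dose (293 and 295 CPM).

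C4A and C4B encode the 2 isotypes of complement C4 and are nearly identical, so the split of reads between them is uncertain. C4A had 210 and 215 CPM and C4B 244 and 226 CPM at the Coptidis high dose, against 252, 263 and 263 CPM for C4A and 275, 256 and 278 CPM for C4B in vehicle. Both were called lower against vehicle (-0.29 ± 0.08 and -0.20 ± 0.07, edgeR adjusted p = 0.000803 and 0.0178), the C4B call being lost without vehicle replicate 3 or Coptidis replicate 3. With offsets the changes were -0.66 for C4A and -0.57 for C4B, and C4A was also called lower in Bupleuri, Cimicifugae, Citri and Yijung-tang and C4B in Bupleuri and Cimicifugae. At the Coptidis low dose the pair was higher, at 294 and 289 CPM for C4A and 346 and 373 CPM for C4B. C4B was the 1 gene called with the Zizyphi high dose, at 327 and 315 CPM (0.25 ± 0.07 against vehicle, edgeR adjusted p = 0.0412), a call lost with offsets (0.11, edgeR adjusted p = 0.178) and without any 1 of the 5 libraries compared. C4A made up 44.8% to 49.0% of the summed C4A and C4B CPM in the replicated groups. C2, whose product forms the C3 convertase with C4b, changed by -0.13 to -0.19 in Citri, Bupleuri and Yijung-tang, calls lost without the filter, and in Citri also without its replicate 1.

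C3, on which the complement routes meet, was not called at the high dose of any extract against vehicle, and CFB, which encodes the factor B protease of the alternative pathway, was lower in 6. C3 had 1799 and 1709 CPM at the Coptidis high dose, against 1760, 1699 and 1799 in vehicle; with offsets it was called lower with Coptidis (-0.32), Bupleuri (-0.25), Aconiti (-0.22) and Cimicifugae (-0.13). CFB had 70.0 and 74.2 CPM at the Coptidis high dose, against 113, 111 and 113 in vehicle (-0.64 ± 0.04, edgeR adjusted p = 2.89e-17). In Citri CFB had 93.1, 95.2 and 93.2 CPM at the high dose, against 121, 115 and 119 at the low dose (-0.34 ± 0.04, edgeR adjusted p = 9.41e-08). The CFB call with Cimicifugae (-0.11) was lost without the filter and without vehicle replicate 1 or 3 or Cimicifugae replicate 1 or 2. CFB and C2 overlap on chromosome 6, where C2 ends at base 31945672 and CFB starts at base 31945650.

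The soluble complement regulators were called lower together in 5 extracts. CFI encodes the protease that inactivates C3b and C4b, and C4BPA and C4BPB encode the chains of its cofactor, C4b-binding protein. CFI changed by -1.90 ± 0.06 with Coptidis and between -0.27 and -0.52 in the 5 other extracts that lowered it. C4BPA had 7.28 and 7.99 CPM at the Coptidis high dose, against 22.2, 23.1 and 24.2 in vehicle (-1.60 ± 0.10, edgeR adjusted p = 1.72e-18). C4BPA had 15.9, 15.8 and 17.4 CPM with Citri (-0.51 ± 0.08 against vehicle, edgeR adjusted p = 1.17e-05) and 14.3, 14.2 and 14.0 CPM with Cimicifugae (-0.71 ± 0.08, edgeR adjusted p = 1.49e-09). In Yijung-tang C4BPA had 14.5 and 12.5 CPM at the high dose, against 20.9 and 23.0 at the low dose (-0.70 ± 0.10, edgeR adjusted p = 7.61e-07). Against vehicle the Yijung-tang change of C4BPA was -0.78 ± 0.09, edgeR adjusted p = 6.98e-09. Against the low dose C4BPA changed in Cimicifugae, where that dose had 19.4, 19.6 and 20.5 CPM (-0.49 ± 0.08, edgeR adjusted p = 1.03e-05). In Citri the low dose had 19.2, 20.6 and 22.8 CPM (-0.35 ± 0.08, edgeR adjusted p = 0.0104). Leaving out replicate 1 or 2 of the Citri high dose, or replicate 3 of its low dose, ended that call. C4BPB was called in these extracts and with Bupleuri, and with Aconiti it was not (-0.01). Calls were lost for C4BPA in Aconiti without its replicate 2, and for C4BPB in Citri without its replicate 2 and in Yijung-tang without either of its libraries.

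In the terminal pathway, which builds the membrane pore, C8A and C8B fell in 6 extracts and C5 in 5. C8A had 0.890 and 1.95 CPM at the Coptidis high dose, against 12.9, 12.8 and 12.8 in vehicle (-3.17 ± 0.14, edgeR adjusted p = 3.81e-24). It had 8.18 and 7.40 CPM with Yijung-tang (-0.72 ± 0.10 against vehicle, edgeR adjusted p = 2.59e-07) and 8.96, 9.97 and 10.1 CPM with Citri (-0.41 ± 0.08, edgeR adjusted p = 0.000637). In Aconiti C8A had 8.25, 8.72 and 8.07 CPM at the high dose, against 11.1, 12.2 and 11.2 at the low dose (-0.46 ± 0.08, edgeR adjusted p = 6.79e-05). C5 had 101, 113 and 114 CPM at the Cimicifugae high dose, against 149, 149 and 149 at the low dose (-0.45 ± 0.10, edgeR adjusted p = 0.00355). Against vehicle the changes were -0.62 ± 0.09, edgeR adjusted p = 2.8e-07 for C8A in Aconiti, and -0.57 ± 0.10, edgeR adjusted p = 5.95e-05 for C5 in Cimicifugae, with C5 at 165, 163 and 160 CPM in vehicle. Against the Yijung-tang low dose, at 11.3 and 11.9 CPM, C8A changed by -0.58 ± 0.10, edgeR adjusted p = 0.000129. The C5 and C8A libraries of the high doses lay below those they were compared with. The C8B calls were lost in Citri with offsets, without the filter and without vehicle replicate 2 or 3 or Citri replicate 1 or 3, in Aconiti without replicate 1 and in Yijung-tang without either library. The C5 calls were lost in Citri without replicate 1 of vehicle or of Citri and in Yijung-tang without either library. C6 was at 1.03 CPM in vehicle and was called lower with Coptidis (-2.69), Yijung-tang (-1.14) and Cimicifugae (-0.92), the last 2 lost without replicate 2 of the extract. C8G, the gene of the lipocalin-like C8 chain, was called higher with Bupleuri (0.91) and Yijung-tang (0.72; lost with offsets, in DESeq2, and without vehicle replicate 3 or its replicate 2) at levels near 1.304 CPM in vehicle.

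Of the 7 genes for vitamin K-dependent proteins, 6 were tested. With Coptidis 4 of them were called lower and 0 higher (median -0.25), and PROS1 was the 1 beyond a fold change of 2; 33.0% of all genes were called lower and 67.5% in either direction. In the other extracts 1 to 3 of the 6 were called, except Zizyphi with 0. The share of all genes called there ran from 14.2% with Citri to 38.9% with Bupleuri, and was 3.63% with Zizyphi.

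The medium doses did not always sit between the low and high doses. Coptidis at the medium dose had 20 genes lower and 17 higher than vehicle (24.6% and 26.1% of all genes, 50.7% in all), and at the low dose 16 lower and 6 higher (16.1% and 17.1%, 33.2% in all). Offsets turned the low-dose split to 18 lower and 3 higher, with 27.1% of all genes called. The medium-dose split became 18 lower and 12 higher with offsets (52.8% of all genes called). It was also 18 and 12 without the filter (24.1%), and 19 and 13 in a fit with vehicle alone (50%). The part of GC content in the medium-dose rises was not tested further. Of the 17 higher in the fit of all 57 libraries, MASP1, SERPIND1 and F11 were also higher at the high dose. The other 14 were not, among them C3, C4A, C4B, F2, F7, F10, PROC and SERPINC1. F7 had 15.1 and 15.5 CPM at the medium dose and 7.91 and 6.82 CPM at the high dose. C3 had 2509 and 2179 CPM at the medium dose and 1799 and 1709 CPM at the high dose. With Aconiti the medium dose had 27 genes lower and 1 higher (10.3% and 10.6% of all genes, 20.9% in all), more than its high dose. F11, F7 and SERPINC1 were called lower at that medium dose (-0.45, -0.50 and -0.52) and were not called at the high dose.

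At the remaining lower doses fewer genes were called. Bupleuri had 14 lower and 0 higher at the medium dose (5.49% and 5.44% of all genes, 10.9% in all), with 17 lower and 0 higher at an unadjusted p under 0.05, 14 lower in DESeq2 and 5 lower in a fit with vehicle alone. Its low dose had 9 lower and 2 higher (10.5% and 11.8%, 22.3% in all), which became 13 and 7 without its replicate 1, 12 and 6 without its replicate 2, 10 and 0 with offsets, and 1 lower in a fit with vehicle alone.

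Citri had 9 lower and 0 higher at the medium dose (4.97% and 5.54%, 10.5% in all), with 15 and 4 at an unadjusted p under 0.05 and 9 and 0 in DESeq2. That count was 5 without its replicate 1, 14 lower and 4 higher in a fit with vehicle alone, 13 and 2 without Bupleuri low-dose replicate 3, and 6 and 1 with offsets. At the low dose Citri had 6 lower and 4 higher (7.56% and 8.38%, 15.9% in all), 5 in all without vehicle replicate 1, 3 without its replicate 1, 3 lower and 1 higher with offsets, 10 and 7 in a fit with vehicle alone, and 9 and 7 without Bupleuri low-dose replicate 3.

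Cimicifugae had 10 lower and 1 higher at the medium dose (5.12% and 5.57%, 10.7% in all), which became 16 and 5 in a fit with vehicle alone and 16 and 2 without Bupleuri low-dose replicate 3. At its low dose 3 were lower and 0 higher (3.15% and 2.95%, 6.10% in all), with 10 and 3 at an unadjusted p under 0.05, 4 and 1 in DESeq2, 3 and 1 with offsets or without the filter, 10 and 4 in a fit with vehicle alone, and 9 and 3 without Bupleuri low-dose replicate 3. Aconiti had 7 lower and 0 higher at the low dose (4.38% and 5.51%, 9.90% in all), with 12 and 4 at an unadjusted p under 0.05, 7 and 1 in DESeq2, 8 and 1 without Bupleuri low-dose replicate 3, 10 and 2 in a fit with vehicle alone, and 4 lower without its replicate 1.

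Yijung-tang had 6 lower and 0 higher at the medium dose (2.65% and 3.60%, 6.25% in all), with 14 and 1 at an unadjusted p under 0.05 and 9 and 0 in DESeq2. That count was 3 without vehicle replicate 3, 1 or 2 without its replicate 1 or 2, 6 lower and 1 higher with offsets, 17 and 2 in a fit with vehicle alone, and 14 without Bupleuri low-dose replicate 3. At its low dose 0 of 42 were called (0.486% of all genes lower and 1.20% higher, 1.69% in all), with 7 at an unadjusted p under 0.05, 0 in DESeq2, 9 in a fit with vehicle alone and 2 without Bupleuri low-dose replicate 3. Zizyphi had 0 called at the medium dose (0.732% and 1.19%, 1.93% in all), with 6 at an unadjusted p under 0.05, 1 in DESeq2 and 3 in a fit with vehicle alone or without Bupleuri low-dose replicate 3. At its low dose 1 was lower and 0 higher (1.07% and 1.73%, 2.79% in all), with 3 and 1 at an unadjusted p under 0.05 and 2 lower in DESeq2. That count was 0 without any 1 of the 5 libraries or without the filter, 2 without Bupleuri low-dose replicate 3, and 2 lower and 1 higher in a fit with vehicle alone.

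Coptidis and Bupleuri were given at the same doses, so their dose changes were compared directly. The difference of the high against low changes was called by edgeR in 26 of the 42 genes, 24 more negative and 2 more positive with Coptidis (44.0% of all genes in either direction). The split by direction was not counted over all genes. FGA differed by -2.15, FGG by -1.98, CPB2 by -1.39, SERPINF2 by -1.31 and FGB by -1.30 on the log2 scale, all more negative with Coptidis. C1S differed by -1.41 ± 0.10 (edgeR adjusted p = 1.03e-16), with a fall of 0.67 in Coptidis and a rise of 0.74 in Bupleuri. SERPIND1 differed by 0.87 ± 0.07 (edgeR adjusted p = 1.57e-13), with a rise of 0.51 in Coptidis and a fall of 0.36 in Bupleuri. C8B differed by 0.09 ± 0.24, which was not called. Without replicate 3 of the Bupleuri low dose, 29 of the 42 genes were called, and 49.4% of all genes.

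**Figure D5:**
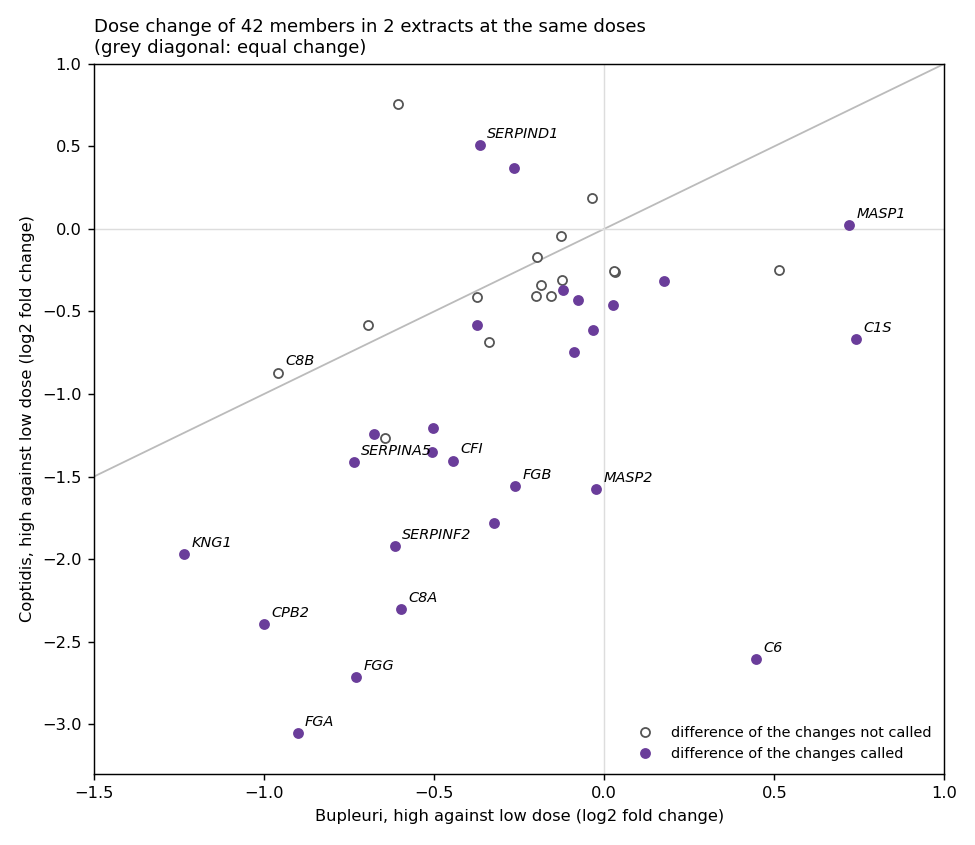
Each point is 1 of the 42 tested genes, with the log2 fold change of high against low dose in Bupleuri on the x axis and in Coptidis on the y axis, filled where the difference between the 2 changes was called, and a grey diagonal of equal change. Most filled points lie below the diagonal, with FGA lowest at -3.05, and SERPIND1 lies above it.

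Banhasasim-tang had 1 library per dose, so its differences have no replicate check. At the high dose, over 34 genes of at least 5 CPM, the median log2 ratio to vehicle was -0.33, and 5 genes lay below -1; mitochondrial ribosomal RNA was 11.8% of counts in this library. FGA had 372 CPM at the high dose, against 1007 CPM as the middle vehicle library, a log2 ratio of -1.44, with FGB at -1.28 and FGG at -1.14. The lowest ratio was that of KNG1 (-2.05, 1.78 CPM). The highest were MASP1 (0.84, 11.4 CPM), F12 (0.72) and MBL2 (0.41). At the medium dose the median was -0.24 over 33 genes and no gene passed 1 in either direction. The low-dose library, which stands apart in GC content, had FGA at 1110 CPM and F2 at 534 CPM.

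Against vehicle, the change of a gene at the high dose went with the GC content of its transcript. Over the 42 genes, Spearman's rho between the log2 change at the high dose against vehicle and GC content was 0.57 with Coptidis and 0.67 with Bupleuri, against 0.11 and 0.29 over 16560 genes, as a description across genes that share libraries. It was 0.591 with Citri, 0.565 with Cimicifugae, 0.436 with Aconiti, 0.415 with Yijung-tang and 0.401 with Zizyphi. Over all genes these were 0.449, 0.447, 0.307, 0.287 and 0.414. For high against low dose rho was 0.50 with Coptidis and 0.39 with Bupleuri over the 42 genes, against -0.07 and -0.04 over all. In Cimicifugae and Yijung-tang it was 0.45 and 0.295, against 0.218 and 0.0389 over all. In Citri, Aconiti and Zizyphi it was 0.0531, -0.0417 and -0.108, against -0.133, -0.0725 and -0.0104. Adjusting each library for GC content and length left 32 lower and 3 higher with Coptidis, and 28 lower and 3 higher with Bupleuri, at the high dose against vehicle. Of all genes, 69.4% and 41.8% were called in either direction after this adjustment.

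Other genes of the same pathways were taken from lists, to be read against the 34.5% of all genes called higher and 33.0% lower with Coptidis, and 19.9% and 19.1% with Bupleuri. Calls for the genes of these lists and those below are from the fit of all 57 libraries alone. They were not checked with offsets, other alternatives or libraries left out. Of 17 tested coagulation genes outside the 44, Coptidis raised 13 and lowered 2 at the high dose (median 1.34). F2RL1, a gene for a protease-activated receptor, averaged 535 ± 5.13 CPM with Coptidis (SD, n = 2) and 36.3 ± 1.97 CPM in vehicle (n = 3; log2 change 3.88), and rose by 1.43 with Bupleuri. TFPI2, a protease inhibitor gene related to that of the tissue factor pathway inhibitor, rose with Coptidis to 5.62 ± 0.244 CPM, against 0.404 ± 0.193 CPM in vehicle (log2 change 3.76).

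Of 8 genes of the vitamin K cycle and factor secretion, Coptidis lowered 7 and raised 1 (FURIN, 1.25). GGCX, the gamma-carboxylase that vitamin K-dependent factors need, was lower with Coptidis (-0.79), Bupleuri (-0.29), Yijung-tang (-0.26), Cimicifugae (-0.24) and Citri (-0.18). PDIA3, a chaperone gene of the secretory pathway, fell by 0.64 with Coptidis. Of 7 other complement genes tested, Coptidis lowered 5, among them CPN2 and CPN1 of the carboxypeptidase that inactivates anaphylatoxins (-1.82 and -1.42) and CLU (-0.50). Of 6 complement receptors and membrane regulators, it raised 5 and lowered 1. CD55, which speeds the decay of C3 convertases, averaged 85.8 ± 1.36 CPM with Coptidis and 12.8 ± 0.501 CPM in vehicle (log2 change 2.75), and rose by 0.58 with Bupleuri. C5AR1, a C5a receptor gene, averaged 20.2 ± 0.162 CPM with Coptidis and 0.149 ± 0.0576 CPM in vehicle (log2 change 7.05). C5AR2, also on this list, averaged 76.4 ± 1.53 CPM with Coptidis and 0 CPM in vehicle.

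Lists of regulators and of inflammatory genes were counted as well, beside the 67.5% of all genes called in either direction with Coptidis. At most 3 called genes of 5 CPM or more were read out per list and extract. A gene named here may therefore be called in further extracts. The part of GC content in these changes against vehicle was not tested. Of 12 hepatocyte transcription factors, Coptidis raised 7 and lowered 4. CEBPA fell by 1.84 on the log2 scale and NR1H4, the bile acid receptor FXR, fell by 3.53, while CEBPB rose by 2.60. NR1H4 was also lower with Bupleuri (-0.76), Cimicifugae (-0.54) and Aconiti (-0.42). CEBPB was also higher with Bupleuri (1.27), Aconiti (0.89), Yijung-tang (0.78) and Cimicifugae (0.52). CEBPA was higher with Aconiti (0.48), Yijung-tang (0.42) and Citri (0.31). Of 12 acute phase and interleukin-6 signalling genes, Coptidis raised 4 and lowered 5. HP (haptoglobin) fell by 3.41 with Coptidis and was also lower with Aconiti (-0.61). IL6R, the interleukin-6 receptor gene, rose by 2.46 with Coptidis and 1.49 with Bupleuri. It was also higher with Cimicifugae (0.66), Yijung-tang (0.57) and Aconiti (0.55). Of 11 interferon response genes Coptidis raised 3 and lowered 6, and of 4 FXR targets it raised 2 and lowered 1. Bupleuri raised 8 and lowered 1 of the 17 other coagulation genes, lowered 4 of the 8 vitamin K cycle genes, lowered 3 of the 7 other complement genes and raised 2 of the 6 receptors and regulators. With Zizyphi 1 transcription factor gene, FOXA2 (0.36), and 1 interferon response gene, TAP1 (0.22), were called among these lists at the high dose. Of all genes, 3.63% were called in either direction in that comparison.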

How the data were processed

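The RNA-seq values are RSEM expected counts per gene, deposited by the authors without normalization. Per the submitters' processing notes, RSEM 1.3.3 and STAR 2.7.3a were used with GRCh38, besides Trim Galore 0.6.5 and FastQC 0.11.9. Which gene annotation they used was not given in the sources used. Of 267 columns, 207 matched no sample and were not used. The labels give 0.1% DMSO and the series text 2%, which was not settled. Expected counts were rounded, since 8.75% of those read were fractional. RSEM divides reads among near-identical genes, so close paralogs are uncertain. Symbols were found for 56558 IDs, and gene positions are those of GENCODE 29.

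One edgeR 4.0.16 model (R 4.3.3, TMM scaling, robust quasi-likelihood) held the 57 libraries of 22 groups with replicates. Filtering by group kept 16675 genes and dropped 44000. It left 35 residual degrees of freedom, and the biological coefficient of variation was 6.14%. Each of 28 comparisons had its own Benjamini-Hochberg adjustment. The SE is the absolute log2 change over the square root of F, and CPM are TMM-scaled. Banhasasim-tang is described by log2 ratios. The 48 replicate pairs each differed by more than sampling noise (chi-square per degree of freedom at least 2.09).

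Values per library are given for up to 3 called rises and 3 called falls at each high dose against vehicle, and up to 3 changes against the low dose, at 5 CPM or more without overlap of libraries, and for the fibrinogen and C4 genes. Further per-library values at the high dose were chosen after they were seen: those of F2, F7, C3, CFB, MASP2, C1S, MBL2, C4BPA and C8A with Coptidis, SERPIND1 and MBL2 with Bupleuri, and SERPIND1 with Yijung-tang. The genes and lists were chosen with earlier results of these data known. Alternatives were DESeq2 1.42.0; RLE scaling; all 33790 genes unfiltered; a block for replicate number; each extract fitted with vehicle alone; library offsets from splines (4 degrees of freedom) on GC content and length; and 57 refits that each left out a library. Leaving the Bupleuri low-dose replicate 3 out of all comparisons, and setting Coptidis against Bupleuri, were added after seeing the data. To check pairing, deviations of same-numbered libraries from their group means were correlated. Among comparisons with 3 pairs, each pair exceeded 0.1 in Bupleuri high against low dose (0.116 to 0.289) and in no other. The scripts were tested on simulated data. The result of 1 gene of the other coagulation genes is not reported here.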

Additional observations from a re-analysis of the deposited data

Results flagged for a closer look

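SERPIND1 and C1S, chosen after their values were seen, moved in opposite directions with dose in Coptidis and Bupleuri, which were given at the same doses. The change of SERPIND1 from low to high dose was higher in Coptidis than in Bupleuri by 0.87 on the log2 scale, and that of C1S differed by -1.41. A call in edgeR's test of the difference, with opposite calls in the 2 extracts, was the rule that picked these genes. Passing that test is therefore no separate support. The differences were 0.95 and -1.38 without replicate 3 of the Bupleuri low dose.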

How the results depend on the processing

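Of 1218 gene changes, results on the same side of the threshold numbered 1216 with RLE scaling, 1208 with the replicate block, 1129 without the filter, 1107 with DESeq2, 1086 without Bupleuri low-dose replicate 3, 1055 with offsets and 978 in a fit with vehicle alone; DESeq2 and the fit with vehicle alone gave fewer results. Under the replicate block 9 changes gained and 1 lost a call, no count of called genes moved by over 1.5 times, and the pairing in Bupleuri high against low dose gave 25 called genes with the block and 24 without. For the other comparisons the numbers are shared only as numbers. The 2-pair correlations of high with low dose were 0.262 in Coptidis, 0.515 in Zizyphi and 0.154 in Yijung-tang. The interaction could not be fitted in a fit with vehicle alone. The cause was not tested for any of the following.

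Counts that moved by over 1.5 times were these. In a fit with vehicle alone, Zizyphi had 3, 3 and 4 called from low to high dose against vehicle, Citri 17 at the low and 18 at the medium dose, Cimicifugae 14 and 21, Bupleuri 1 and 5, Yijung-tang 9 and 19, and Aconiti 12 at the low dose. The share of all genes called there was 9.26%, 7.76% and 12.2% in Zizyphi, 29.1% and 23.1% in Citri and 18.9% and 24.5% in Cimicifugae. It was 2.53% and 1.29% in Bupleuri, 12.4% and 22.3% in Yijung-tang and 23.9% in Aconiti. High against low gave 18 for Citri, 27 for Cimicifugae and 18 for Aconiti there, with 2.81%, 17.4% and 26.8% of all genes called. Without Bupleuri low-dose replicate 3, Zizyphi had 2, 3 and 3, Citri 16 and 15, Cimicifugae 12 and 18, Yijung-tang 2 and 14, and high against low gave 16 for Citri, 24 for Cimicifugae and 16 for Aconiti. The shares of all genes called were 7.73%, 6.66% and 10.3% in Zizyphi, 24.2% and 18.6% in Citri and 13.1% and 18.9% in Cimicifugae. They were 4.87% and 12.7% in Yijung-tang, and 2.14%, 12.7% and 22.2% for high against low. With offsets Zizyphi high had 0, Citri low 4, and high against low 17 for Citri and 24 for Cimicifugae. The shares of all genes called were 1.44%, 5.49%, 1.72% and 10.9%, in that order. With DESeq2 Zizyphi had 2, 1 and 2 and Cimicifugae low 5. Of the genes given an adjusted p by DESeq2, 5.92%, 4.23%, 8.06% and 9.33% were called. Without the filter Zizyphi low had 0 and Citri high against low 5, with 2.06% and 0.568% of all 33790 genes called.

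With each library left out in turn, counts against vehicle, from low to high dose, ran from 19 to 22, 28 to 36 and 31 to 33 with Coptidis, 3 to 11, 5 to 9 and 14 to 19 with Citri, 2 to 3, 9 to 10 and 19 to 24 with Cimicifugae, 8 to 20, 12 to 14 and 24 to 26 with Bupleuri, 4 to 7, 24 to 26 and 13 to 15 with Aconiti, 0 to 0, 1 to 5 and 19 to 24 with Yijung-tang, and 0 to 0 at each dose with Zizyphi. High against low ran from 30 to 32 with Coptidis, 3 to 7 with Citri, 12 to 14 with Cimicifugae, 24 to 31 with Bupleuri, 6 to 10 with Aconiti, 16 to 18 with Yijung-tang and 0 to 0 with Zizyphi, and the Coptidis and Bupleuri difference from 23 to 29.

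Directions turned with offsets for C3 at the Coptidis high dose (-0.32), PROC (-0.0040), F10 (-0.15) and SERPINA1 (-0.11) at the Coptidis low dose, SERPINF2 at the low dose of Zizyphi (-0.13), Citri (-0.14) and Bupleuri (-0.12), CFI at the Citri low dose (0.0025) and F2 at the Cimicifugae high dose (-0.093). Without replicate 3 of the Bupleuri low dose, Bupleuri high against low turned for C3 (-0.17), F5 (-0.27) and C4A (-0.14), and with other libraries left out C3 reached 0.15, F5 0.22 and C4A 0.13. Depth limits the genes near or below 1 CPM, such as PLG, C6 and KLKB1.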
